A study of Mus musculus with 8 samples.

Results

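Treatment with an antibody that targets the receptor for interleukin-6, called anti-IL-6R here, was compared with a control antibody in C57BL/6 mice that carried no tumour. The comparison rests on 4 of the 8 microarrays of the series, chosen by the host and antibody named in the sample titles. Anti-IL-6R in tumour-free mice is represented by replicates 5 and 6, and control antibody in tumour-free mice by replicates 1 and 2. The other 4 arrays come from mice bearing the ovalbumin-expressing fibrosarcoma MCA205, given anti-IL-6R (replicates 7 and 8) or control antibody (replicates 3 and 4), and are used to show where the antibody difference depended on the host. All mice, tumour-free ones included, were of strain C57BL/6, were given CD4+ T cells carrying a transgenic receptor specific for ovalbumin (OVA), and were immunised with dendritic cells pulsed with OVA peptide. Anti-IL-6R was injected at the same time as the dendritic cells. CD4+ T cells were isolated on day 4, and Cy3-labelled cRNA made from 0.1 µg of their RNA was hybridised to 1 array per sample.

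The design text of the series names the antibody comparison in tumour-bearing mice, and the tumour-free pair gives the same comparison without a tumour. It also states that each condition was studied in independent experiments, but the sources used here do not give which samples share an experiment, how many mice made up a sample, the antibody clones and doses, or how pure the isolates were. The labels do not say whether transferred and host CD4+ T cells were separated, so a value may be an average over both. With 2 arrays per group, the p-values reflect only how far these samples spread, which may be partly technical.

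IL-6 is a cytokine that binds its receptor (encoded by Il6ra) and then the shared signalling chain gp130 (Il6st). The complex activates JAK kinases and the transcription factor STAT3, which induces Socs3, an inhibitor that feeds back on gp130. In CD4+ T cells, IL-6 favours the Th17 and follicular helper (Tfh) programmes and can restrain the interferon-gamma-producing Th1 programme, while an antibody to the receptor keeps IL-6 from starting the signal. T cells carry the receptor themselves, and other cells of the mouse respond to IL-6 as well.

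The 4 tumour-free arrays had 53.1% to 56.0% of probes well above background, within the 53.1% to 59.8% of the series, and their 75th percentile signals were 500 to 523 before scaling. Levels below are log2 signals relative to the 75th percentile of the array, so a level of 0 is a bright probe and a level near -6 is a probe at background. Replicate arrays correlated at 0.9934 under anti-IL-6R and 0.9948 under control antibody, and arrays of different antibodies at 0.9895 to 0.9917. All arrays lay on 1 slide, with the anti-IL-6R arrays in its column 2 and the control arrays in its column 1, so antibody and slide column cannot be told apart. The isolates carried T cell transcripts at high levels. Cd3e, a chain of the T cell receptor complex, stood at 6.37 and 6.28 under anti-IL-6R, against 6.39 and 6.28 under control antibody. Cd4 stood at 5.54 and 5.40 under anti-IL-6R, against 5.48 and 5.34 under control antibody, and the CD8 chain Cd8a stood at -1.86 and -1.63, against -1.70 and -1.32. The other CD8 chain, Cd8b1, stood higher, at 2.97 and 2.78 under anti-IL-6R, against 2.95 and 2.93 under control antibody. Transcripts of other cells were present too: Csf1r, a macrophage growth factor receptor, stood at 5.81 and 6.29 under anti-IL-6R, against 5.55 and 5.72 under control antibody. The 16 measured genes of a dendritic cell list summed to 685.9 and 742 under anti-IL-6R, against 715.5 and 685.8 under control antibody (linear signal, units of the 75th percentile). The 12 pan T cell genes summed to 1160 and 1105, against 1145 and 1025.

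In tumour-free mice few transcripts passed the adjusted test between the antibodies. Of 20242 genes tested, 4 rose (0.0198%) and 2 fell (0.00988%) under anti-IL-6R at an adjusted p under 0.05 in limma. The genes that rose were Bbc3, which encodes the pro-apoptotic protein PUMA, the olfactory receptor gene Olfr913 and the Riken transcripts 4930523O13Rik and 2610027K06Rik. The genes that fell were the X-linked long non-coding RNA Firre and the Riken transcript C530050E15Rik. The 3 Riken transcripts were named because so few genes passed, after their values were seen. Of all genes tested, 59.2% lay above 0 and the median difference was 0.03 log2. An unadjusted p under 0.05 was reached by 992 higher genes (4.9%) and 651 lower genes (3.22%). Both anti-IL-6R arrays lay above both control arrays in 5172 genes and below them in 3087, so groups that do not overlap were common. The smallest adjusted p among the genes not called was 0.0699. The count depended on the control arrays: without replicate 1 no gene passed in either direction (1845 higher and 1057 lower at an unadjusted p under 0.05). Without replicate 2 none rose (387 higher at an unadjusted p under 0.05) and 2 fell, neither of them among the 6. Without replicate 5 there were 18 higher and 2 lower genes, and without replicate 6 there were 21 and 6. With 1 array left in a group, that array was assumed to vary like the other groups. In a bulk sample, fewer cells of a type and less RNA per cell cannot be told apart, and this holds for every difference below.

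**Figure D1:**
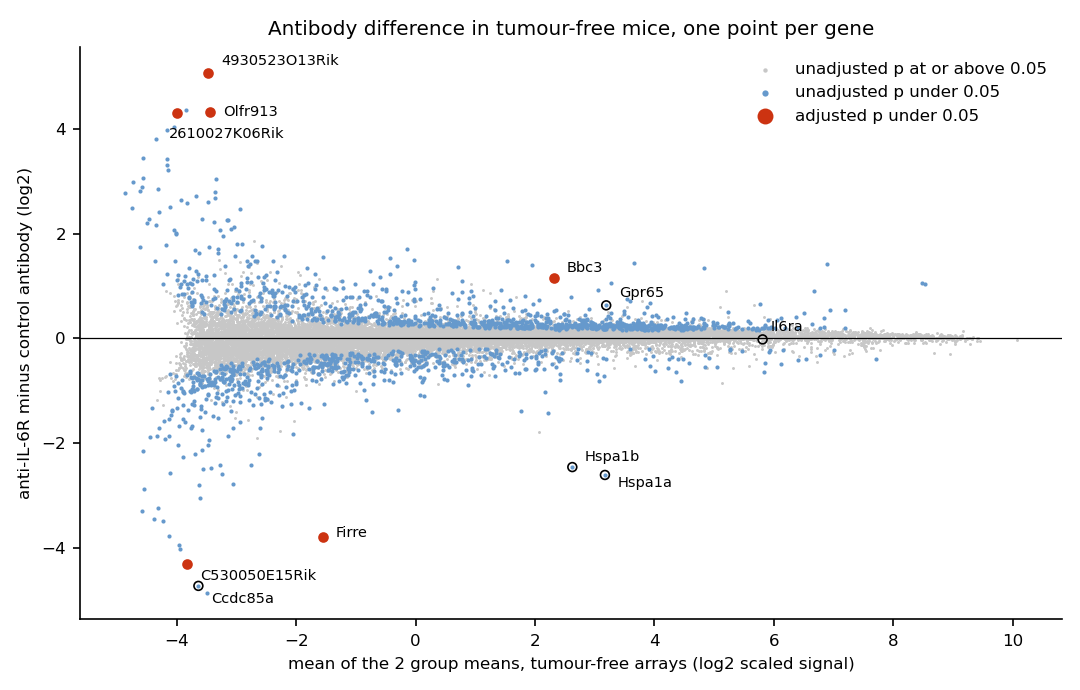
Each point is 1 of the 20242 genes; the horizontal axis is its mean level on the 4 tumour-free arrays (log2 relative to the 75th percentile) and the vertical axis is the anti-IL-6R minus control antibody difference (log2). The 6 genes past an adjusted p of 0.05 are drawn in red and those past an unadjusted p of 0.05 in blue, and apart from Bbc3 and Firre they stand at the dim end of the array.

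Of the 6 genes, Bbc3 was readily detected in both groups, on every tumour-free array. Its levels were 2.97 and 2.81 under anti-IL-6R, against 1.81 and 1.67 under control antibody. The groups were clearly apart, and the difference was 1.15 ± 0.13 log2 (SE, n = 2 each; adjusted p = 0.0459 in limma), or 2.22-fold. Tumour-bearing mice gave similar levels, 3.04 and 2.87 under anti-IL-6R against 1.55 and 1.88 under control antibody. The antibody difference there was 1.24 log2, and the difference between hosts was -0.09 ± 0.18 (unadjusted p = 0.641). The call was close to the threshold: the difference lay between 1.07 and 1.23 log2 in all 19 alternative analyses that gave a value, and its adjusted p passed in 9 of them and reached 0.155 in the weakest, without replicate 2. Without replicate 1 its adjusted p was 0.112, without replicate 5 it was 0.0789, without replicate 7 it was 0.0744 and without replicate 8 it was 0.0632.

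PUMA belongs to the BH3-only members of the BCL2 family, which trigger apoptosis by neutralising the protective members or by activating the pore-forming ones. Of 15 measured family genes, Bbc3 was the one that passed. At an unadjusted p under 0.05, 4 were higher and 1 lower, against 4.9% and 3.22% of all genes. The median difference was 0.11 log2, against 0.03 for all genes. Bok, a pore-forming relative of BAX, had levels of -2.22 and -1.72 under anti-IL-6R, against -2.79 and -2.91 under control antibody, a difference of 0.88 ± 0.20 (adjusted p = 0.38). Bcl2l11, which encodes the BH3-only protein BIM, differed by 0.28 ± 0.10 and the pore-forming Bak1 by 0.24 ± 0.08 (adjusted p = 0.582 and 0.57). Bmf, another BH3-only gene, ran the other way. It stood at -0.19 and -0.14 under anti-IL-6R, against 0.37 and 0.21 under control antibody, a difference of -0.46 ± 0.10 (adjusted p = 0.38). Its other kept probe differed by -0.12 ± 0.14 (adjusted p = 0.799). Of 21 measured p53 targets, a list that also holds Bbc3, 2 were higher (9.52%) and 1 lower (4.76%) at an unadjusted p under 0.05. The shares of all genes were 4.9% and 3.22%, and the median of the list was 0.11.

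Firre is an X-linked long non-coding RNA known for organising chromatin contacts in the nucleus. The array carries 4 probes for it, of which 2 were bright enough to keep. The called probe read -3.32 and -3.58 under anti-IL-6R, against 0.28 and 0.40 under control antibody. Tumour-bearing mice had -3.45 and -2.91 under anti-IL-6R, against -2.91 and -3.67 under control antibody, so the tumour-free control arrays were high and the 6 other arrays were low. The difference in tumour-free mice was -3.79 ± 0.29 log2, or 13.9-fold lower (adjusted p = 0.00683). The other kept probe did not share it: it read -2.85 and -2.83 under anti-IL-6R, against -2.81 and -2.58 under control antibody, a difference of -0.15 ± 0.17 (adjusted p = 0.814, each probe tested on its own). The fall is therefore a result about 1 probe. Both probes lie on the minus strand of chromosome X in build mm9, the build named by the file headers, at 47911457 to 47911516 for the called probe and 47916405 to 47916464 for the other. Their starts are 4948 bases apart and their longest shared run is 4 bases. Their sequences are shown because they separate the reading that differed from the one that did not.
Firre, called probe: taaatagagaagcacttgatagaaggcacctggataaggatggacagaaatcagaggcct
Firre, other kept probe: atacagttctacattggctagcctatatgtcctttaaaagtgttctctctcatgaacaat

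The remaining 4 called transcripts were detected under 1 antibody and not under the other, so their size is known only as a bound. For the bound, a dim array entered at the lowest signal called well above background on it, or at its own value if higher. 4930523O13Rik read -1.06 and -0.82 under anti-IL-6R, against -5.87 and -6.12 under control antibody, at least 8.13-fold higher (adjusted p = 0.00683). Olfr913 read -1.31 and -1.24 under anti-IL-6R, against -5.45 and -5.74 under control antibody, at least 6.44-fold higher (adjusted p = 0.00683). 2610027K06Rik read -1.46 and -2.22 under anti-IL-6R, against -6.02 and -6.27 under control antibody, at least 4.35-fold higher (adjusted p = 0.0459). C530050E15Rik read -5.88 and -6.06 under anti-IL-6R, against -2.03 and -1.32 under control antibody, at least 4.72-fold lower (adjusted p = 0.0417). Each was kept for testing because both arrays of its bright group were well above background, so a gap was partly fixed beforehand. Their adjusted p-values rest on dim arrays read at or near background, and the gap is no separate support. In tumour-bearing mice 4930523O13Rik, 2610027K06Rik and C530050E15Rik read between -5.92 and -6.61 on every array, and Olfr913 between -3.85 and -5.38. A further probe of 2610027K06Rik, at 85605403 to 85605462 of chromosome 11, was too dim to keep.

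These 4 readings each rest on the single kept probe of the transcript, printed here with its mm9 position because the probe is all that identifies the RNA. 4930523O13Rik was read on chromosome 15 from 46288513 to 46288572 (minus strand), Olfr913 on chromosome 9 from 38402686 to 38402745 (plus strand), 2610027K06Rik on chromosome 11 from 85609320 to 85609379 (minus strand) and C530050E15Rik on chromosome 13 from 24724175 to 24724234 (minus strand).
4930523O13Rik: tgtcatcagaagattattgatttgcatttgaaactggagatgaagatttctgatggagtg
Olfr913: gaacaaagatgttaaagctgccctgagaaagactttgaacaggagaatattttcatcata
2610027K06Rik: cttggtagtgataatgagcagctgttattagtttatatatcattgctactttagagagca
C530050E15Rik: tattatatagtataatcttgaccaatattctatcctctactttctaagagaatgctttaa

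Single-group readings of this kind occurred in every group of the series. Of 36984 genes on the array, 24 were well above background on both tumour-free anti-IL-6R arrays and on none of the 6 others, and 15 on both tumour-free control arrays alone. The same count was 50 for tumour-bearing mice with anti-IL-6R and 155 for tumour-bearing mice with control antibody. Whether such readings come from transcripts or from the probes was not tested.

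**Figure D2:**
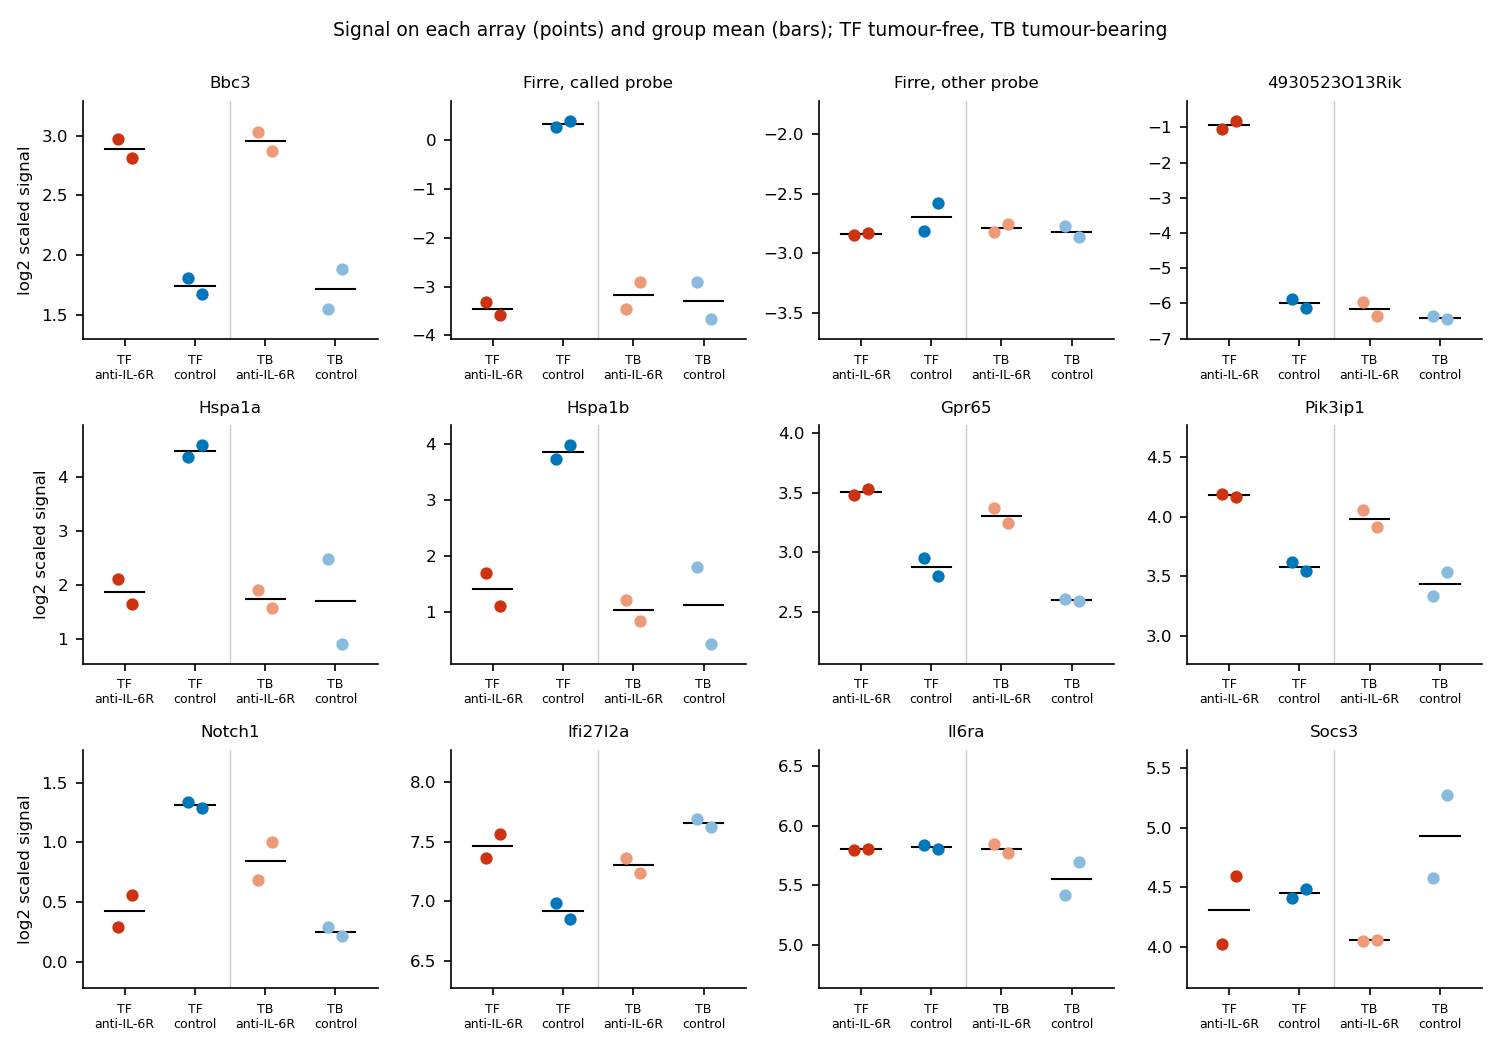
Each panel shows 1 gene on all 8 arrays, as the level (log2 relative to the 75th percentile), with the groups from left to right tumour-free anti-IL-6R, tumour-free control, tumour-bearing anti-IL-6R and tumour-bearing control; points are arrays and bars are group means. Bbc3, Gpr65 and Pik3ip1 are higher under anti-IL-6R in both hosts, the called Firre probe, Hspa1a and Hspa1b are high in the tumour-free control arrays, and Il6ra and Socs3 differ little in tumour-free mice.

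Transcripts of the IL-6 pathway itself gave no calls, and signalling by its proteins was not measured. Il6ra, the receptor that the antibody binds, stood at 5.80 and 5.80 under anti-IL-6R, against 5.83 and 5.80 under control antibody (difference -0.02 ± 0.09, adjusted p = 0.962). Il6st, which encodes gp130, stood at 2.38 and 2.27 under anti-IL-6R, against 2.57 and 2.47 under control antibody (-0.19 ± 0.09, adjusted p = 0.622). Neither transcript changed past the test. Stat3 differed by 0.09 ± 0.08 (adjusted p = 0.752). Socs3, the feedback inhibitor induced by STAT3, stood at 4.03 and 4.59 under anti-IL-6R, against 4.41 and 4.49 under control antibody, so the groups overlapped (-0.14 ± 0.23, adjusted p = 0.87). Il6 was not measured, being well above background on none of the 4 tumour-free arrays.

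Of 28 measured genes of the IL-6 receptor and STAT3 list, none passed the adjusted test. The median was 0.05 log2, against 0.03 for all genes. At an unadjusted p under 0.05, 4 were higher and none lower, against 4.9% and 3.22% of all genes. These 4 were Maf, Cish, Lifr and Socs1. Maf, a transcription factor of IL-21- and IL-4-producing helper cells, stood at 1.80 and 1.79 under anti-IL-6R, against 1.64 and 1.43 under control antibody (0.27 ± 0.09, adjusted p = 0.57). Cish and Socs1, inhibitors of cytokine signalling, differed by 0.30 ± 0.07 and 0.25 ± 0.11 (adjusted p = 0.446 and 0.602). Lifr, the receptor for leukaemia inhibitory factor, which also signals through gp130, differed by 0.57 ± 0.23 (adjusted p = 0.602). Il10 was well above background on 1 of the 2 anti-IL-6R arrays and on both control arrays. Il21, a cytokine of Tfh cells that also signals through STAT3, stood at -2.47 and -2.30 under anti-IL-6R, against -2.03 and -2.70 under control antibody.

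Genes of the Th1 programme did not pass the test in either direction. Ifng, the cytokine that defines Th1 cells, stood at 1.63 and 1.98 under anti-IL-6R, against 2.22 and 2.34 under control antibody. Both anti-IL-6R arrays were below both control arrays, which held for 3087 of all 20242 genes. The Ifng difference of -0.48 ± 0.25 log2 did not pass (adjusted p = 0.641). Tbx21, which encodes the Th1 master regulator T-bet, stood at 2.40 and 2.17 under anti-IL-6R, against 2.17 and 2.19 under control antibody (0.10 ± 0.13, adjusted p = 0.817). Eomes, a related regulator, differed by -0.03, and the IL-12 signalling genes Stat4, Il12rb1 and Il12rb2 by -0.0015, 0.08 and -0.03. Tnf stood at 0.80 and 0.81 under anti-IL-6R, against 1.23 and 1.35 under control antibody (-0.48 ± 0.13, adjusted p = 0.49). Of 27 measured Th1 genes, 4 were higher (Nkg7, Ifngr1, Ccl5, Ly6c2) and 2 lower (Tnf, Ccl3) at an unadjusted p under 0.05. The shares of all genes were 4.9% and 3.22%, and the median of the list was 0.08. Nkg7, a granule protein of cytotoxic and Th1 cells, differed by 0.41 ± 0.11 and the chemokine gene Ccl3 by -0.50 ± 0.17 (adjusted p = 0.487 and 0.548).

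The other helper programmes gave no calls either. Of 24 measured Tfh genes, 5 were higher and none lower at an unadjusted p under 0.05, with a median of 0.08. Among them Cd200, a membrane protein high on Tfh cells, stood at 2.16 and 2.13 under anti-IL-6R, against 1.79 and 1.60 under control antibody (0.45 ± 0.08, adjusted p = 0.221). Icos, a costimulatory receptor that Tfh cells need, differed by 0.33 ± 0.08 (adjusted p = 0.455) and Cxcr4 by 0.45 ± 0.14 (adjusted p = 0.521). Bcl6, the Tfh master regulator, differed by 0.08 ± 0.09 (adjusted p = 0.817). Pdcd1, which encodes the inhibitory receptor PD-1, stood at 1.44 and 1.35 under anti-IL-6R, against 1.18 and 0.95 under control antibody (0.33 ± 0.12, adjusted p = 0.585).

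Of 11 measured Th17 genes, 1 was higher and none lower, with a median of 0.00. Il17a, the cytokine that defines these cells, was not measured because its probe was dim on all arrays. The Th2 list had 1 of 14 genes higher and none lower (median 0.14): Gata3 differed by 0.00 ± 0.09 and Il4 by 0.33 ± 0.17 (adjusted p = 0.998 and 0.641). The regulatory T cell list had 3 of 22 genes higher and none lower (median 0.15), namely Tnfrsf4, Ebi3 and Gpr83. Foxp3, which defines those cells, stood at 1.54 and 1.51 under anti-IL-6R, against 1.58 and 1.54 under control antibody (-0.04 ± 0.09, adjusted p = 0.909). Ctla4 differed by 0.28 ± 0.17 and Cd40lg by -0.18 ± 0.16 (adjusted p = 0.665 and 0.759). All these counts of higher and lower genes are at an unadjusted p under 0.05, which 4.9% and 3.22% of all genes reached.

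Genes of cytotoxic granules lay slightly higher as a group. All 14 measured members had differences above 0, against 59.2% of all genes, with a median of 0.21 log2. 6 of them were higher at an unadjusted p under 0.05, against 4.9% of all genes, and none passed the adjusted test. Serpinb6b, a granzyme inhibitor, differed by 0.33 ± 0.10, Prf1, which encodes perforin, by 0.29 ± 0.12, and Gzma, a granzyme, by 0.24 ± 0.10 (adjusted p = 0.509, 0.602 and 0.602). Gzmk stood at -0.78 and -1.56 under anti-IL-6R, against -1.85 and -1.86 under control antibody (0.68 ± 0.23, adjusted p = 0.552), and Gzmb differed by 0.27 ± 0.24 (adjusted p = 0.755). Among 15 genes of IL-2 receptor and STAT5 signalling (median 0.07), 5 were higher and none lower at an unadjusted p under 0.05. The shares of all genes were 4.9% and 3.22%. Il7r, the receptor for the survival cytokine IL-7, stood at 6.37 and 6.26 under anti-IL-6R, against 5.97 and 5.87 under control antibody (0.40 ± 0.09, adjusted p = 0.395). Il2rb, a chain of the IL-2 and IL-15 receptors, differed by 0.27 ± 0.08 (adjusted p = 0.521), and Il2 itself was not measured. Lag3, an inhibitory receptor, differed by 0.50 ± 0.17 (adjusted p = 0.558).

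**Figure D3:**
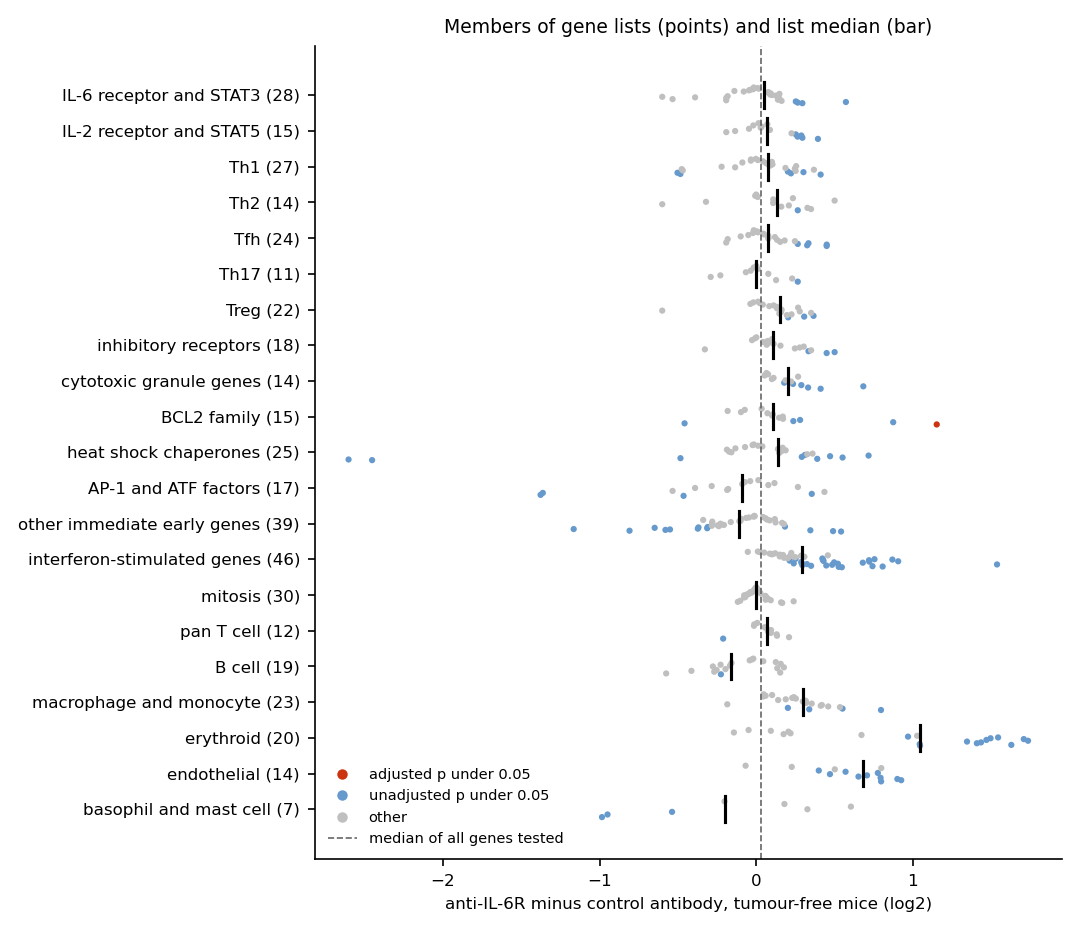
Each row is a gene list, with the number of measured members in brackets; points are members and bars the list median, as the anti-IL-6R minus control antibody difference in tumour-free mice (log2), and the dashed line is the median of all genes tested. Bbc3 is the one member past an adjusted p of 0.05, and of the lists drawn, the erythroid and endothelial ones have the medians farthest above the dashed line.

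Interferon-stimulated genes, the antiviral set switched on by type I and type II interferons, read higher under anti-IL-6R in most members by small amounts. Of 46 measured members, 45 had a difference above 0 and 26 were higher and none lower at an unadjusted p under 0.05, against 4.9% and 3.22% of all genes. The median was 0.29 log2, and 0.05 in tumour-bearing mice. None passed the adjusted test. Ifi27l2a, a small mitochondrial protein gene, stood at 7.37 and 7.56 under anti-IL-6R, against 6.98 and 6.85 under control antibody (0.55 ± 0.09, adjusted p = 0.16). Oasl1, of the oligoadenylate synthetase family, stood at 1.98 and 2.48 under anti-IL-6R, against 1.56 and 1.28 under control antibody (0.81 ± 0.17, adjusted p = 0.283). The groups did not overlap for either gene, as in 5172 higher genes of all 20242 tested. Rtp4 differed by 0.74 ± 0.17, the pro-apoptotic Xaf1 by 0.53 ± 0.11, the nucleic acid sensor Zbp1 by 0.45 ± 0.11 and the GTPase gene Ifi47 by 0.35 ± 0.08 (adjusted p between 0.276 and 0.461). Cxcl10, an interferon-induced chemokine, differed by 0.68 ± 0.16 (adjusted p = 0.416). The list's median was 0.19 log2 without replicate 6 and 0.38 without replicate 5, its extremes over the alternatives. Macrophage markers also read higher without a tumour, with a difference above 0 in 22 of 23. Signs were about as one-sided in the oxidative phosphorylation and proteasome lists described below. The summed macrophage signal was 376 and 440 under anti-IL-6R, against 344 and 363 under control antibody. With a tumour this sum was 461 and 425 under anti-IL-6R, against 440 and 318 under control antibody, so the groups overlapped. The median difference of the macrophage list was 0.30 log2 without a tumour and 0.53 log2 with a tumour. The part of macrophages in the interferon result was not tested.

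Rsad2, which encodes the antiviral enzyme viperin, had the largest difference of the list (1.54 ± 0.43, adjusted p = 0.493) and was added after its values were seen. It stood at -0.12 and 0.81 under anti-IL-6R, against -1.49 and -0.91 under control antibody, so the arrays of both groups were spread widely and did not overlap. Interferons act on a promoter element with the core GAAANNGAA. That core, searched on both strands in RefSeq promoter windows from 250 bases before to 50 after the start (build GRCm38.p6), was in a window of 18 of the 33 list genes with an entry (54.55%) and of 9.76% of 27025 genes in all. The search was added after the values were seen. The stretch of the Rsad2 promoter from 150 to 91 bases upstream, at chr12:26456543-26456602 on the minus strand, is printed as the example, with the core as it reads on this strand, 119 bases upstream, in capitals.
Rsad2 promoter: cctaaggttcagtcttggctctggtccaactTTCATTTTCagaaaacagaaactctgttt

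The inducible HSP70 genes Hspa1a and Hspa1b, which encode the stress chaperone made when proteins unfold, were among the larger differences and did not pass the test. Hspa1a stood at 2.10 and 1.64 under anti-IL-6R, against 4.36 and 4.58 under control antibody (-2.60 ± 0.42, adjusted p = 0.158). Hspa1b stood at 1.69 and 1.11 under anti-IL-6R, against 3.73 and 3.97 under control antibody (-2.45 ± 0.39, adjusted p = 0.156). The tumour-free control arrays were the high ones, since tumour-bearing mice had Hspa1a at 1.91 and 1.58 under anti-IL-6R, against 2.48 and 0.90 under control antibody. The wide gap between those tumour-bearing control arrays enters the shared estimate of spread. With the 4 tumour-free arrays fitted alone, the adjusted p was 0.00308 for Hspa1a and 0.0104 for Hspa1b. Without replicate 3 it was 0.0115 and 0.0185, and without replicate 4 it was 0.00744 and 0.0174.

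Hspa1a and Hspa1b are neighbouring copies on chromosome 17 with nearly the same coding sequence. The probe of Hspa1a lies at 35106766 to 35106825 of mm9 (minus strand). For that of Hspa1b the files place 32 of its 60 bases, at 35093374 to 35093405 (minus strand). The probes share at most 5 bases in a run and gave readings in step across the arrays. Their promoters are nearly the same too: the 150 bases upstream match at 149 positions (99.3%). Each holds a heat shock element unit, GAANNTTC, where the heat shock factor HSF1 is known to bind, 104 bases upstream (capitals). The stretches are given in build GRCm38.p6 from RefSeq, both on the minus strand, at chr17:34972157-34972306 for Hspa1a and chr17:34959239-34959388 for Hspa1b.
Hspa1a promoter: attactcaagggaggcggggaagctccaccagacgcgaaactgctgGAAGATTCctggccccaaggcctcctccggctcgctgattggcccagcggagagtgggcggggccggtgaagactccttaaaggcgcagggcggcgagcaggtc
Hspa1b promoter: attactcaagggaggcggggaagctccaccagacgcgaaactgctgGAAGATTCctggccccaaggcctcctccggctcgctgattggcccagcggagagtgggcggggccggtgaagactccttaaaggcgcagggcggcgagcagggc

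Most of the chaperone list did not share the low readings. Of 25 measured heat shock chaperones, 6 were higher and 3 lower at an unadjusted p under 0.05, against 4.9% and 3.22% of all genes. The median was 0.14 log2. Chordc1 and Ahsa1, cochaperones of HSP90, differed by 0.55 ± 0.19 and 0.39 ± 0.10, and Hspe1, the mitochondrial HSP10, by 0.29 ± 0.10 (adjusted p = 0.548, 0.486 and 0.552). Hspa4l, the other lower member beside the HSP70 pair, differed by -0.48 ± 0.15 (adjusted p = 0.528) on the probe used, but by 0.46, 0.75 and 0.58 on its other kept probes. The heat shock element units GAANNTTC or TTCNNGAA were in a promoter window of 11 of the 20 chaperone genes with an entry (55%), against 16.97% of all genes. The windows of Hspe1 and Chordc1, which read higher, held them as did those of Hspa1a and Hspa1b.

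Immediate early genes, which T cells and other cells transcribe within minutes of a stimulus or of handling, read lower in more members than higher. Of 17 AP-1 and ATF factors, 1 was higher and 3 were lower at an unadjusted p under 0.05 (median -0.09), and of 39 other immediate early genes 4 were higher and 9 lower (median -0.11), against 4.9% higher and 3.22% lower of all genes. None passed the adjusted test. Fosb, an AP-1 subunit, stood at 0.73 and 1.42 under anti-IL-6R, against 2.18 and 2.73 under control antibody (-1.38 ± 0.34, adjusted p = 0.446). Jun, its usual partner, stood at 5.51 and 5.72 under anti-IL-6R, against 6.01 and 6.14 under control antibody (-0.46 ± 0.11, adjusted p = 0.38). Atf3, a stress-induced factor, stood at -1.66 and -0.29 under anti-IL-6R, against 0.32 and 0.46 under control antibody (-1.36 ± 0.41, adjusted p = 0.521). The groups did not overlap in these 3 genes, as in 3087 lower genes of all 20242 tested. Klf4 differed by -0.81 ± 0.18, Gadd45b by -0.58 ± 0.15 and the orphan receptor gene Nr4a1 by -0.55 ± 0.17 (adjusted p = 0.361, 0.457 and 0.521).

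A few immediate early genes read higher under anti-IL-6R. Dusp2, a phosphatase that switches off MAP kinases in lymphocytes, stood at 7.18 and 7.25 under anti-IL-6R, against 6.70 and 6.65 under control antibody (0.54 ± 0.09, adjusted p = 0.158). Zfp36l2, an RNA-binding protein that speeds mRNA decay, differed by 0.49 ± 0.09, the clock gene Per1 by 0.35 ± 0.08 and the AP-1 subunit Fosl2 by 0.36 ± 0.10 (adjusted p = 0.223, 0.362 and 0.498). In tumour-bearing mice these 4 genes differed by 0.52, 1.02, 0.47 and 0.31 log2, the same direction. Most of the lower genes named above ran the opposite way there. Fosb, Jun, Atf3, Klf4 and Nr4a1 differed by 1.61, 0.68, 2.47, 1.13 and 0.76 log2 with a tumour, and Gadd45b by -0.06. With a tumour the median was 0.31 for the AP-1 and ATF factors and 0.26 for the other immediate early genes. The AP-1 site TGANTCA was in a promoter window of 0 of 15 AP-1 and ATF genes and 2 of 30 other immediate early genes with an entry, against 8.97% of all genes. The cyclic AMP element TGACGTCA was in 1 of 15 and 3 of 30 (Btg2, Dusp1, Ppp1r15a), against 2.03%. The serum response element, or CArG box, was in 0 of 15 and 3 of 30 (Dusp5, Egr2, Zfp36), against 1.81%. The EGR element GCGTGGGCG was in 1 of 15 and 0 of 30, against 0.71%.

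Some genes outside these lists had small p-values without passing. Gpr65, a proton-sensing receptor of lymphocytes, stood at 3.48 and 3.54 under anti-IL-6R, against 2.95 and 2.80 under control antibody (0.63 ± 0.08, adjusted p = 0.0731). In tumour-bearing mice it stood at 3.37 and 3.25 under anti-IL-6R, against 2.60 and 2.59 under control antibody. Pik3ip1, an inhibitor of PI3 kinase that is high in resting T cells, stood at 4.19 and 4.16 under anti-IL-6R, against 3.61 and 3.54 under control antibody (0.60 ± 0.09, adjusted p = 0.12). Its difference in tumour-bearing mice was 0.55 log2. Like Bbc3, both genes were thus higher on every anti-IL-6R array than on every control array of the same host. Tfpi, an inhibitor of tissue factor, differed by 0.71 ± 0.10 (adjusted p = 0.0786) on the probe used, and by 0.46 and -0.02 on its other kept probes. Ddit4, which inhibits the growth kinase mTORC1, differed by 0.90 ± 0.22 (adjusted p = 0.446).

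Notch1, a receptor for cell-to-cell signals in T cell fate, stood at 0.29 and 0.56 under anti-IL-6R, against 1.34 and 1.29 under control antibody (-0.89 ± 0.13, adjusted p = 0.12). In tumour-bearing mice it stood at 0.69 and 1.00 under anti-IL-6R, against 0.29 and 0.21 under control antibody, the opposite order. Pinx1, a telomerase inhibitor, differed by -0.81 ± 0.14, the cation channel gene Trpm1 by -0.78 ± 0.14 and Abhd14b by -0.71 ± 0.12 (adjusted p = 0.201, 0.204 and 0.183). The rest of the genes with the smallest p-values were dim under 1 antibody and were kept for testing through the other antibody's arrays alone. Zpld2, Prkg1, Gpr153, Dcbld2 and Cd59a were at least 3.43-, 3.8-, 2.7-, 2.16- and 1.9-fold higher (adjusted p between 0.0699 and 0.0775). Ccdc85a, Cdkl4 and Col19a1 were at least 6.22-, 5.02- and 2.7-fold lower (adjusted p = 0.175, 0.156 and 0.073).

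Markers of some other cell types, red cells and vessels first among them, read higher under anti-IL-6R. Of 20 measured erythroid genes, 18 had a difference above 0 (59.2% of all genes) and 12 were higher at an unadjusted p under 0.05 (4.9% of all genes). None passed the adjusted test, and the median was 1.05 log2. Their summed signal, in units of the 75th percentile, was 1205 and 1450 under anti-IL-6R, against 438.5 and 863.5 under control antibody. The alpha-globin gene Hba-a2 stood at 8.90 and 9.12 under anti-IL-6R, against 7.48 and 8.45 under control antibody (1.05 ± 0.29, adjusted p = 0.494), and the beta-globin gene Hbb-bt at 7.42 and 7.76, against 5.62 and 6.73 (1.41 ± 0.40, adjusted p = 0.498). Replicate 1 was the lowest array for both, and the list's median was 0.60 without it and 1.53 without replicate 2. In tumour-bearing mice the median of the list was -0.90.

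Endothelial genes formed the other list with many higher members. Of 14 measured, 13 had a difference above 0 and 10 were higher at an unadjusted p under 0.05, against 59.2% and 4.9% of all genes, with a median of 0.68 log2 in tumour-free mice, against 1.04 with a tumour. Their summed signal was low, 14.72 and 20.75 under anti-IL-6R, against 11.96 and 10.21 under control antibody. Egfl7, secreted by endothelium, stood at 1.62 and 2.18 under anti-IL-6R, against 1.18 and 0.76 under control antibody (0.93 ± 0.21, adjusted p = 0.367). Robo4 and Cldn5, a guidance receptor and a tight junction protein of vessels, differed by 0.80 ± 0.17 and 0.90 ± 0.23 (adjusted p = 0.354 and 0.448). Of the defining markers, Cdh5, which encodes VE-cadherin, stood at -1.80 and -1.48, against -2.07 and -2.62.

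Of 23 macrophage and monocyte genes, 4 were higher and none lower at an unadjusted p under 0.05, against 4.9% and 3.22% of all genes, with a median of 0.30. Marco, a scavenger receptor, differed by 0.80 ± 0.16 (adjusted p = 0.282). Of 15 neutrophil genes, 10 had a difference above 0, 1 was higher and 1 lower at an unadjusted p under 0.05, and the median was 0.32. Their summed signal was 144 and 269 under anti-IL-6R, against 151 and 191 under control antibody, so replicate 6 was the high array, and without it the median was -0.12. The stromal and fibroblast list had 2 of 9 genes higher and none lower at an unadjusted p under 0.05 (median 0.21). One of them, the matrix protein gene Sparc, differed by 1.06 ± 0.20 (adjusted p = 0.233), and by 1.00 and -0.36 on its other kept probes. In the basophil and mast cell list 3 of 7 genes were lower and none higher at an unadjusted p under 0.05 (median -0.20). The proteases Mcpt4 and Cpa3 were among the lower ones, at -0.98 ± 0.18 and -0.95 ± 0.24 (adjusted p = 0.204 and 0.469). Hdc, Il4 and Kit of the same list lay above 0, at 0.61, 0.33 and 0.18. The summed signal overlapped, at 4.23 and 7.74 under anti-IL-6R, against 6.30 and 5.75 under control antibody. At an unadjusted p under 0.05 the B cell list had none higher and 1 lower of 19 (median -0.16, summed signal 105 and 106, against 94.9 and 118). At that threshold the pan T cell list had none higher and 1 lower of 12 (median 0.07, summed signal 1160 and 1105, against 1145 and 1025). The part of these cells in the other differences was not tested.

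Lists of cell growth held few genes past an unadjusted p of 0.05. Of 33 genes of DNA replication 2 were higher and 1 lower at an unadjusted p under 0.05 (median 0.07), against 4.9% and 3.22% of all genes. Of 30 mitotic genes there were none in either direction (median 0.00). Mki67, a marker of dividing cells, stood at 3.90 and 3.59 under anti-IL-6R, against 3.67 and 3.70 under control antibody (0.06 ± 0.15, adjusted p = 0.914). No gene was past an unadjusted p of 0.05 on the probe used in the lists of oxidative phosphorylation (39 genes), glycolysis (20) and cholesterol synthesis (21). The same held for the unfolded protein response (20), the proteasome (31) and NF-kappaB feedback (21). Other kept probes of Nfkbid and Psmc1 were past it, at -0.75 ± 0.15 and 0.17 ± 0.07 (adjusted p = 0.271 and 0.604 in limma, each probe tested on its own). Differences lay above 0 in 37 of 39 oxidative phosphorylation genes (median 0.12) and 30 of 31 proteasome genes (median 0.11), against 59.2% of all genes. Both medians hung on the control arrays, at 0.05 and 0.02 without replicate 2 and at 0.20 and 0.20 without replicate 1. The T cell receptor signalling list had 1 of 28 higher and none lower, and the list of naive and resting T cell genes 2 of 22 higher and 1 lower.

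Over all genes the antibody differences in the 2 hosts did not run together, though those of Bbc3, Gpr65 and Pik3ip1 had the same direction. Across the 20242 genes, the differences in the 2 hosts correlated at -0.13, a description over genes that are not independent and with no arrays in common. With 8.12% of genes at an unadjusted p under 0.05 in tumour-free mice, this value cannot show how far antibody differences were shared. Of 1643 genes with an unadjusted p under 0.05 in tumour-free mice, 732 (44.6%) had the same direction in tumour-bearing mice, against 39.2% of all genes. Tested directly, the antibody difference depended on the host at an adjusted p under 0.05 in 8 genes (0.0395%) and at an unadjusted p under 0.05 in 5224 (25.8%). Firre differed between hosts by -3.90 ± 0.40 log2 (adjusted p = 0.0475) and 4930523O13Rik by 4.80 ± 0.54 (adjusted p = 0.0481), a size that is not exact because 6 of its arrays were dim.

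Bmf was lower under anti-IL-6R in tumour-free mice and higher in tumour-bearing mice, where it stood at 0.37 and 0.20 under anti-IL-6R, against -0.56 and -0.54 under control antibody. The difference between hosts was -1.29 ± 0.15 (adjusted p = 0.0481) on the probe used and -0.21 on its other kept probe (adjusted p = 0.529), and the call held in 8 of 19 alternatives. Camp, Ltf and Mpo, which encode granule proteins of neutrophils and their precursors, Tox2, a factor of Tfh and exhausted T cells, and Apol11b made up the rest. In these 5 the 2 tumour-bearing control arrays were the high ones. Mpo was not well above background on the tumour-free anti-IL-6R arrays, and Ltf and Apol11b were dim on 1 tumour-free control array, so their sizes are not exact. Camp, for example, stood at -1.80 and -1.26 under anti-IL-6R, against -1.71 and -1.16 under control antibody in tumour-free mice (-0.10 ± 0.23). In tumour-bearing mice it stood at -1.83 and -1.44 under anti-IL-6R, against 2.95 and 2.81 under control antibody. Tox2 differed by 0.01 ± 0.11 in tumour-free mice and by -1.50 in tumour-bearing mice, and on its other kept probe the difference between hosts was -0.13.

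Several genes, some of helper cell programmes and some not, fell short of the same threshold with an adjusted p of 0.0534 for the difference between hosts. Maf differed by 0.27 in tumour-free mice and by -0.72 in tumour-bearing mice, and Il4 by 0.33 and -1.61. Notch1 and Klf4 ran the other way, at -0.89 and -0.81 in tumour-free mice, against 0.59 and 1.13 in tumour-bearing mice. So did Jun and Ccl3, at -0.46 and -0.50 in tumour-free mice, against 0.68 and 1.47 in tumour-bearing mice. Prss12, a serine protease gene, differed by -0.54 in tumour-free mice, against 1.02 with a tumour (adjusted p = 0.0504). The erythroid markers also ran in opposite directions in the hosts, with medians of 1.05 and -0.90 log2, while the endothelial markers ran the same way.

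**Figure D4:**
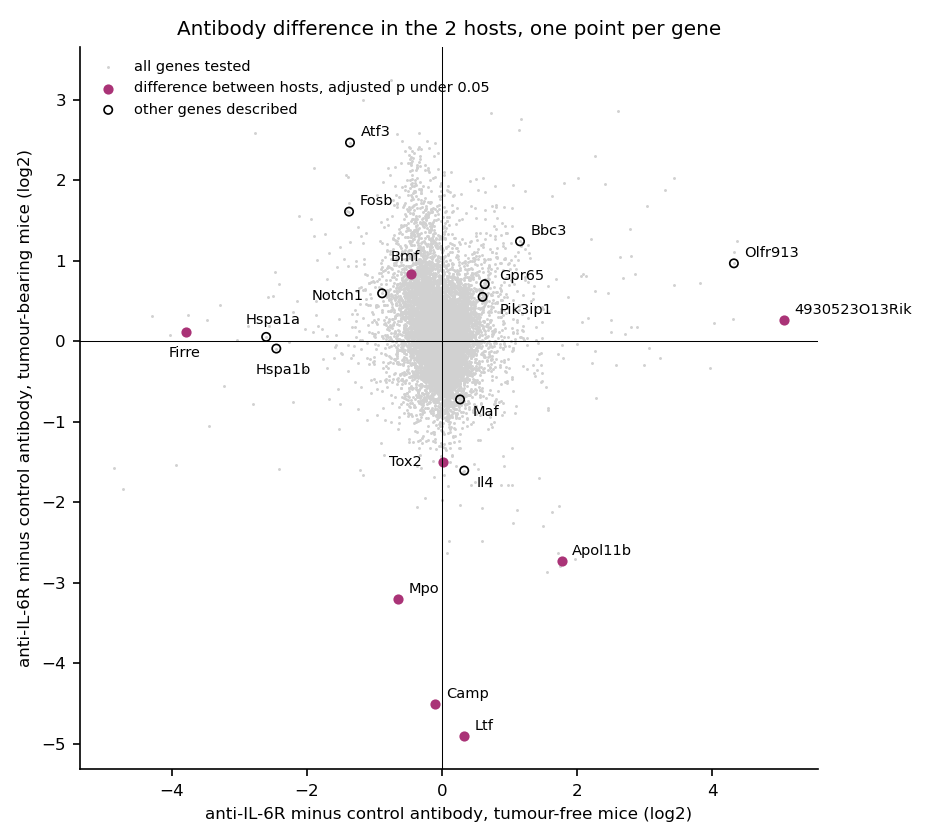
Each grey point is a gene; the horizontal axis is the anti-IL-6R minus control antibody difference in tumour-free mice and the vertical axis the same difference in tumour-bearing mice (both log2). The 8 genes whose difference depended on the host are drawn in purple, and Bbc3, Gpr65 and Pik3ip1 lie in the upper right, where both differences are above 0.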

How the data were processed

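Each of the 8 scanner files holds 62976 spots, 3671 of them controls. The authors' signals are intensity values from version 10.10.1.1 of Agilent Feature Extraction (submitters' processing notes). Per the file headers, background was subtracted and the signal detrended, spots at background got a surrogate value, and dyes were not normalized. The sources used here do not say how the log2 values of the deposited value table were made. Each column equalled the log2 signal minus the array's 75th percentile (r = 1) and served as an alternative. Probe positions are in mm9, per the file headers.

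Control spots and outlier spots (60 to 95 per array) were dropped and spots of a probe were averaged, which left 56587 of 56605 probes (18 had no usable spot on some array). Signals were put on the log2 scale and the 75th percentile of the array was subtracted. The 29979 probes called well above background on both arrays of either tumour-free group were kept. Of a gene's kept probes the one brightest on average over the 8 arrays was used, for 20242 genes (6485 had several). Names came from RefSeq by accession for 33887 probes, by symbol for 9460 and by synonym for 489, and 12751 kept the file's name.

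All 8 arrays were fitted as 4 group means with limma (version 3.58.1, under R 4.3.3 with the package data.table in version 1.17.8; 4 residual and 4.17 prior degrees of freedom, intensity trend, two-sided, Benjamini-Hochberg over all genes, threshold 0.05). The median SE of a difference was 0.12 log2, which with 2 arrays per group sets the precision. The procedure was tested on simulated data. Files were read in Python 3.11.15 (pandas 2.3.3), and plots were made with matplotlib 3.10.9. In each direction the rule named up to 15 called genes with at least 2-fold change, an official symbol and groups that did not overlap, and, as fewer than 5 passed, the 10 with the smallest unadjusted p. It added 28 preset genes (3 were not measured and 1 is not reported here), up to 6 members of each list described and up to 5 genes per direction of the difference between hosts. The comparison, lists and named genes were chosen with earlier results of these data known. No gene set was tested: a list is described by its counts and median. Alternatives are under the dependence on processing. No sample was left out.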

Additional observations from a re-analysis of the deposited data

Results flagged for a closer look

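8 genes drew attention because their antibody difference in tumour-free mice departed from that in tumour-bearing mice by the test of that difference in limma. The values are the tumour-free antibody difference minus the tumour-bearing one, on the log2 scale. Ltf gave 5.23 (adjusted p = 0.0378), Apol11b 4.51 (0.0481), Camp 4.42 (0.016), Mpo 2.56 (0.0481) and Tox2 1.51 (0.0475). In these 5 genes the tumour-bearing control arrays were the high ones. Mpo was not well above background on the tumour-free anti-IL-6R arrays, and Ltf and Apol11b were so on 1 of the 2 tumour-free control arrays, so the sizes of these 3 are not exact. 4930523O13Rik gave 4.80 (adjusted p = 0.0481) and was detected on the tumour-free anti-IL-6R arrays alone. Firre gave -3.90 (adjusted p = 0.0475), with the tumour-free control arrays high on the probe used. Bmf gave -1.29 (adjusted p = 0.0481), with the control arrays high in tumour-free mice and the anti-IL-6R arrays high in tumour-bearing mice on the probe used. Its other kept probe gave -0.21 (adjusted p = 0.529).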

How the results depend on the processing

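The numbers of higher and lower genes and of genes whose antibody difference depended on the host (4, 2 and 8) were 16, 4 and 11 with normexp background correction, 10, 6 and 4 with quantile normalization, and 4, 2 and 8 with the deposited table. They were 5, 3 and 0 without a filter on dim probes, and 0, 1 and 1 with probes well above background on all 4 tumour-free arrays. They were 12, 5 and 6 without an intensity trend, 13, 6 and 58 with robust moderation, 2, 2 and 5 with array weights, 2, 0 and 1 with the mean of all kept probes, 8, 2 and 7 with each probe on its own, and 35, 24 and 1816 with the slide row as a block. With only the tumour-free arrays they were 12 and 13. Leaving out 1 array gave 0 to 21, 0 to 6 and 3 to 659. Where a count was 0 in limma, an unadjusted p under 0.05 was reached by 6061 host differences without a filter, by 894 higher genes with all 4 tumour-free arrays bright, and by 752 lower genes with the mean of probes. 4930523O13Rik and Olfr913 lost the call only without replicate 1 or 2; Firre lost it there, with the mean of its probes and on its other probe. 2610027K06Rik kept it in 8 of 18 alternatives and C530050E15Rik in 13 of 18. No analysis paired by experiment was possible because the labels number the samples 1 to 8 with no number shared between groups. The slide row block pairs arrays by position on the slide, and the labels give no row.

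Of 112 genes, 22 changed sign somewhere, all of them uncalled for the antibody difference. With normexp, Tox2 was -0.019, Il12rb2 0.051, Il10 0.0075 and Gata3 -0.018. With quantile normalization Tox2 was -0.030, Il21 0.018, Gata3 -0.057 and Mki67 -0.016, and in the deposited table Gata3 was -0.0005. With the mean of kept probes Hspa4l was 0.33, Tox2 -0.29, Il6ra 0.019, Stat3 -0.14 and Bcl6 -0.072. On other kept probes Bcl6 was -0.22, Hspa4l 0.46, 0.75 and 0.58, Il21r -0.012, Il6ra 0.056, Il6st 0.063, Sparc -0.36, Stat3 -0.37 and -0.15, Tfpi -0.024, Tox2 -0.60 and the Tox2 host difference -0.13. Leaving out 1 array changed the sign of Bcl6 (-0.049 to 0.21), Camp (-0.37 to 0.17), Eomes (-0.17 to 0.10), Gata3 (-0.064 to 0.065), Gzmb (-0.015 to 0.55), Il10 (-1.22 to 0.023), Il12rb2 (-0.20 to 0.13), Il21 (-0.35 to 0.32), Ltf (-0.17 to 0.82), Mki67 (-0.094 to 0.21), Prdm1 (-0.045 to 0.34), Socs3 (-0.42 to 0.14), Stat4 (-0.15 to 0.15), Tbx21 (-0.014 to 0.22) and Tox2 (-0.055 to 0.078). The cause of these changes was not tested. The lowest signal called well above background was 24.2 to 36.3, which limits what can be said of dim genes.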
